A study of Mus musculus with 50 samples.

Results

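The genes described here are 10 members of the hypoxia-inducible factor (HIF) pathway: the factor's subunit gene Hif1a, the genes Egln1, Egln2, Egln3 and Vhl that control its breakdown, and the target genes Vegfa, Bnip3, Pdk1, Adm and Ankrd37. They were taken by symbol from a count table of 21647 genes, and all 10 had enough counts to be among the 13294 genes tested. The libraries are mRNA of CD8+ T cells pulled from the spleen with anti-CD8a beads, from WT mice and from knockout mice (KO) on a background labelled C567BL/6J, all 10 weeks old. The cells were sequenced uncultured at 0h, or after 2h, 6h, 12h or 24h on plate-coated anti-CD3e with soluble anti-CD28, which stimulate the T cell receptor and its costimulatory receptor. Each genotype has 5 mice, and each mouse gave a library at all 5 times, 50 libraries in all. No cells cultured without stimulation are analysed here, so stimulation and time in culture cannot be told apart. In such bulk samples fewer cells of a type and less RNA per cell also cannot be told apart.

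HIF is a transcription factor of an oxygen-regulated alpha subunit and a constant beta subunit. With oxygen present, prolyl hydroxylases encoded by the Egln genes mark the alpha subunit, the Vhl protein recognises the mark, and the subunit is ubiquitinated and degraded. When hydroxylation stops, the subunit accumulates, joins its partner and binds hypoxia response elements near its target genes. Activated T cells also accumulate HIF-1α at normal oxygen through antigen receptor and growth factor signalling, and the factor is known there for raising glycolysis. Egln3 is itself a HIF target in many cell types. The libraries report mRNA, and HIF-1α protein was not measured in them.

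The core of a hypoxia response element is written ACGTG or GCGTG, and both were searched, on both strands, in the 250 bases upstream of each member's RefSeq start in build GRCm38.p6. All 10 members matched a promoter entry. ACGTG was found upstream of 6 of the 10 (Hif1a, Egln1, Egln2, Egln3, Bnip3 and Ankrd37) and in 16.6% of 32841 RefSeq promoter windows of this length. GCGTG was found in 28.2% of those windows, and at least 1 of the motifs in 38.6%. Among the members, only the Vhl and Vegfa windows held neither. A match is a string of letters and says nothing on binding. The upstream sequences of 4 members that moved are shown because their windows differ in motif content, from neither motif (Vegfa) to both (Egln1). They read 5′ to 3′ on the gene's strand, with motif letters in capitals, and cover chr8:124949325-124949504 (Egln1, minus strand), chr12:54203875-54204124 (Egln3, minus strand), chr17:46032378-46032627 (Vegfa, minus strand) and chr2:71872974-71873223 (Pdk1, plus strand).
Egln1: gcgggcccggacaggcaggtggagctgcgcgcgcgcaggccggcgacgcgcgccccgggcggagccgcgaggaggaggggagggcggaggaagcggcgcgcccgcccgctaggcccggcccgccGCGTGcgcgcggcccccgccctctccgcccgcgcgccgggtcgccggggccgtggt
Egln3: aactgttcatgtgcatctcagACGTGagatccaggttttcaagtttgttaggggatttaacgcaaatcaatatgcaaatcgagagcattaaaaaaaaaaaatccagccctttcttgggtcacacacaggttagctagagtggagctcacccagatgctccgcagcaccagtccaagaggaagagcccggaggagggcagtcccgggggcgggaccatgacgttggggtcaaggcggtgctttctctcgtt
Vegfa: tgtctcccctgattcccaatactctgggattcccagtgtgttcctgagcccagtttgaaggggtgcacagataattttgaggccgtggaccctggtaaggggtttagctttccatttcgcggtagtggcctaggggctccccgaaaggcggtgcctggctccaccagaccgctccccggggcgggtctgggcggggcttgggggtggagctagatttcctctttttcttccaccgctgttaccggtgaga
Pdk1: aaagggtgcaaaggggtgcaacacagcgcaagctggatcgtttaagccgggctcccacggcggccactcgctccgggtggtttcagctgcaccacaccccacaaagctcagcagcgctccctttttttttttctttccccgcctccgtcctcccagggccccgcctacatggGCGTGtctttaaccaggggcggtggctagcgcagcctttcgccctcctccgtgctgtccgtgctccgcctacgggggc
The Egln1 stretch is limited to the 180 bases outside its GENCODE gene model, and the ACGTG of Egln1 lies 68 bases upstream of the RefSeq start, inside that model. Egln3 held ACGTG 229 bases upstream, Pdk1 held GCGTG 78 bases upstream, and Vegfa, which rose most of the 10 genes, held neither in this window.

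Libraries held 9571625 to 31293872 counted reads (median 23548632), and levels are given as counts scaled to library size (CPM, as edgeR's cpm function gives them). Markers of CD8 T cells (Cd3e, Cd3d, Cd8a, Cd8b1, Trac) were found in every library. Libraries of WT mice 1 and 4 stood apart. At 0h their 7 immature thymocyte markers summed to 1300 to 1630 CPM, whereas in WT mice 2, 3 and 5 the sum was 240 to 451 CPM and in KO 302 to 435 CPM. Their 8 mitosis markers summed to 3820 to 4750 CPM at 0h, against 76.1 to 144 and 222 to 846 CPM. Their CD8 T cell markers summed to 1510 to 2110 CPM, against 5040 to 12700 and 4470 to 6100 CPM. Cd4 was at 8.16 to 86.0 CPM in all 10 of their libraries and at most 1.38 CPM in the other 40. The part of these differences in the results below was not tested, and values without them are given beside the results that they moved most. The 0h library of WT mouse 3 also stood apart for 5 of the 10 members, as its values below show. Differences between groups are log2 fold changes with standard errors (SE) from edgeR's quasi-likelihood test, and a gene is called at a Benjamini-Hochberg adjusted p under 0.05 over all 13294 genes.

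**Figure D1:**
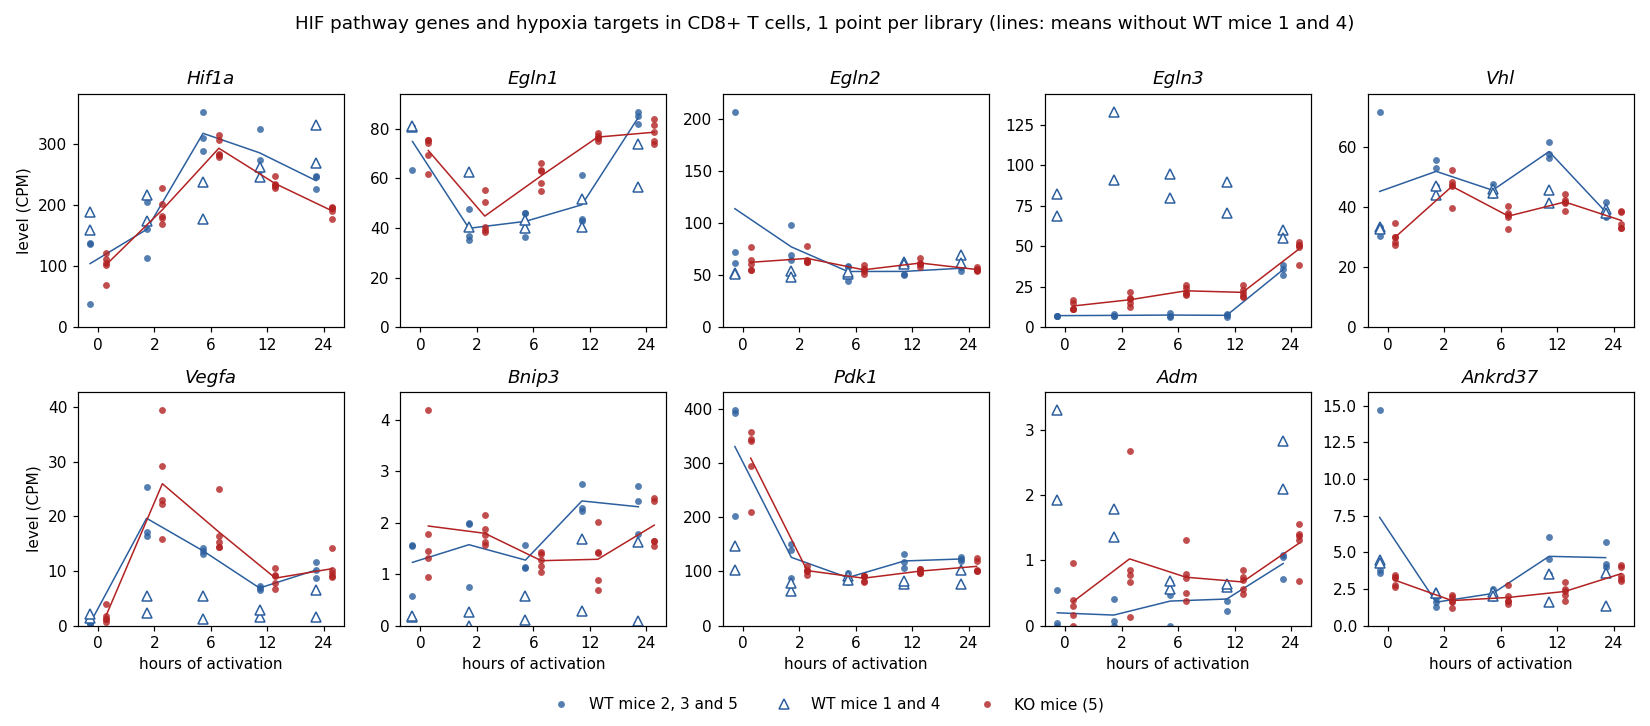
Level (CPM) of each of the 10 genes by time of activation (hours), each library being a point (blue circles WT mice 2, 3 and 5, open triangles WT mice 1 and 4, red circles KO) and lines through the means without WT mice 1 and 4. Egln3 in WT mice 1 and 4 sits between 54.9 and 133 CPM at all times, and Egln1 in KO lies above WT at 6h and 12h.

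After activation the sensor, the factor and the targets moved in different directions, as the plot of levels by library shows. Hif1a rose and Vegfa rose in both genotypes, Pdk1 fell in both, and Egln1 fell in both at 2h. Bnip3 and Adm stayed near the lower limit of detection. At 2h against 0h, WT had 1 member up and 3 down, where 30.2% of all genes were called, and KO had 3 up and 3 down, where 39.9% were called. The counts at 6h were 2 up and 4 down in WT (39.9% of all genes called) and 2 up and 1 down in KO (49.2%). At 12h the WT cells had 3 up and 3 down (39.4%) and the KO cells 3 up and 1 down (52.8%). At 24h the counts were 2 and 2 in WT (44.1%) and 3 and 1 in KO (58.7%). The later times of a genotype share its 0h libraries, so these counts are not independent of each other. The members called, 4 to 6 of 10 in WT and 3 to 6 of 10 in KO, exceeded the share of all genes at 2h, 6h and 12h in WT and at 2h in KO and fell short of it at the other times, and no test was made of this.

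Hif1a (chromosome 12, 73901375 to 73947530, plus strand) encodes an oxygen-regulated alpha subunit, HIF-1α. At 0h the 5 KO mice had 102, 122, 69.4, 112 and 105 CPM, and the 5 WT mice 189, 139, 38.0, 159 and 136 CPM. At 6h KO had 284, 307, 279, 316 and 283 CPM, and WT 178, 290, 354, 238 and 311 CPM. All KO libraries of 6h lay above all of 0h, while in WT the 6h library of mouse 1 lay below its own 0h library. The mRNA rose by 6h by 1.53 in KO (SE 0.215, adjusted p = 2.1e-07) and by 1.05 in WT (SE 0.212, adjusted p = 0.000109), and without WT mice 1 and 4 the WT change was 1.60. At 2h KO stood at 170 to 228 CPM, a called rise of 0.92, and WT at 114 to 217 CPM, a change of 0.40 that was not called (adjusted p = 0.151) and that was 0.61 without WT mice 1 and 4 (adjusted p = 0.037). In these WT values without the pair (1.60 at 6h and 0.61 at 2h), mouse 3, low at 0h with 38.0 CPM, is 1 of 3 WT mice. The step from 2h to 6h was called in both genotypes, 0.65 in WT (adjusted p = 0.0159) and 0.61 in KO (adjusted p = 0.0167). The WT step lost its call without WT mouse 2 or without WT mouse 5, and the KO step without KO mouse 1, 3, 4 or 5. With all mice, no later step was called. The KO estimates were -0.32 from 6h to 12h (adjusted p = 0.469) and -0.30 from 12h to 24h (adjusted p = 0.403). Yet each KO mouse fell at both steps. The KO libraries of 12h (228 to 249 CPM) lay below all KO libraries of 6h and above all of 24h. In WT, mice 2, 3 and 5 fell at both steps, whereas mice 1 and 4 rose. At 24h KO still had 177, 197, 191, 195 and 196 CPM and WT 332, 249, 246, 270 and 227 CPM, called rises of 0.91 and 1.00. In fits of only the 10 libraries compared, the WT changes of Hif1a at 6h, 12h and 24h were not called (adjusted p = 0.0988, 0.0744 and 0.0701).

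Egln1 (chromosome 8, 124908587 to 124949324, minus strand) encodes PHD2, the main oxygen-sensing prolyl hydroxylase of HIF-1α in most cells. At 0h WT mice had 80.9, 80.7, 63.4, 81.3 and 80.7 CPM and KO mice 61.8, 75.5, 74.4, 75.4 and 69.4 CPM. At 2h WT had 62.6, 35.1, 36.9, 40.3 and 47.7 CPM and KO 38.6, 55.3, 40.4, 39.2 and 50.6 CPM. Every 2h library was below every 0h library of its genotype. The gene fell by 0.80 in WT (SE 0.130, adjusted p = 7.75e-06) and by 0.67 in KO (SE 0.130, adjusted p = 5.75e-05), in the WT case a call lost when only the 10 libraries compared were fitted (adjusted p = 0.076).

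The genotypes then parted. At 6h WT mice had 40.1, 46.0, 45.9, 43.2 and 36.2 CPM, and KO mice 66.1, 62.9, 58.0, 63.4 and 55.1 CPM. At 12h WT had 40.4, 43.8, 61.5, 51.8 and 42.9 CPM, and KO 75.0, 76.5, 76.3, 78.5 and 77.3 CPM. At both times the lowest KO library exceeded the highest WT library, a separation also seen in 11% of all genes at 6h and 24.4% at 12h. By 24h the levels met again, at 56.7, 87.0, 82.0, 73.8 and 85.1 CPM in WT and 81.7, 83.9, 78.6, 74.0 and 75.2 CPM in KO. In WT the changes from 0h were -0.87 at 6h and -0.69 at 12h, both called, and -0.01 at 24h, with a called step of 0.68 from 12h to 24h (adjusted p = 0.00037). In KO they were -0.22 at 6h, 0.11 at 12h and 0.14 at 24h, none of them called (the 6h change was called without WT mice 1 and 4, at -0.25, adjusted p = 0.0433), with a called step of 0.45 from 2h to 6h (adjusted p = 0.00438) that was lost without KO mouse 1. No step between 2h and 12h was called in WT, while KO was back within its 0h range at 6h in 3 of 5 libraries and within or above that range in all 5 at 12h.

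Egln1 was the one member called between the genotypes after 0h. KO exceeded WT by 0.53 at 6h (SE 0.129, adjusted p = 0.0133) and by 0.68 at 12h (SE 0.130, adjusted p = 0.00153). Of all genes, 10.1% were called at 6h and 13.1% at 12h. Without WT mice 1 and 4 the differences were 0.50 (adjusted p = 0.0219) and 0.67 (adjusted p = 0.000337). The 12h difference was called in 18 of 18 settings tried, with values from 0.60 to 0.79, and the 6h difference in 14 of 18, being lost without WT mouse 4 or without KO mouse 1, 2 or 4. The difference of the genotypes' changes from 0h was 0.65 at 6h (SE 0.183, adjusted p = 0.0433) and 0.79 at 12h (SE 0.183, adjusted p = 0.0048), where 2.47% and 7.5% of all genes were called. At 6h that call held in 6 of 17 settings, and at 12h in 16 of 17, being lost with library totals in place of TMM (0.59, adjusted p = 0.0565). Beside this, the 3 NK cell markers, of which Eomes is also made by CD8 T cells, summed to 56.8 to 234 CPM in KO and 4.71 to 35.4 CPM in WT at 6h, and to 120 to 335 and 14.7 to 82.1 CPM at 12h. Klrb1c and Ncr1, the other two, reached at most 6.68 and 3.72 CPM in any library. The 5 dendritic cell markers also did not overlap, at 19.9 to 29.6 CPM in KO and 2.56 to 18.0 CPM in WT at 6h, and at 9.62 to 24.3 and 5.25 to 9.15 CPM at 12h. In that list Itgax and Zbtb46 reached 34.1 and 17.4 CPM, and Flt3, Xcr1 and Siglech at most 3.3, 4.48 and 0.963 CPM in any library. Which cells made these marker transcripts, and the part of such cells in the Egln1 difference, were not tested.

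Egln3 (chromosome 12, 54178981 to 54203860, minus strand) encodes PHD3, a hydroxylase whose own gene HIF induces. WT mice 2, 3 and 5 had 7.05, 7.13 and 7.12 CPM at 0h and 8.07, 7.46 and 6.34 CPM at 12h, then 38.6, 32.3 and 35.7 CPM at 24h. WT mice 1 and 4 had 82.4 and 68.3 CPM at 0h, 89.8 and 70.3 CPM at 12h and 60.1 and 54.9 CPM at 24h. KO mice had 11.4, 14.9, 11.3, 16.8 and 10.9 CPM at 0h and 18.4, 25.7, 19.2, 21.1 and 22.9 CPM at 12h, then 38.5, 52.3, 50.4, 50.7 and 49.2 CPM at 24h. The late rise was present in all KO mice and in WT mice 2, 3 and 5, whereas WT mice 1 and 4 were high from the start and lower at 24h. In KO the change at 24h was 1.89 (SE 0.773, adjusted p = 0.034), a call lost without any 1 of the KO mice (values of 1.73 to 1.98 over all settings) and with library totals or no filter on low counts. In WT it was 0.36 with all mice (adjusted p = 0.72), 2.32 without mice 1 and 4 (SE 0.187, adjusted p = 7.63e-13) and 1.63 with each mouse compared with itself (adjusted p = 5.89e-05). In the fit without WT mice 1 and 4, KO also rose by 0.34 at 2h, 0.75 at 6h and 0.71 at 12h, while the WT changes were 0.03, 0.06 and -0.01 at 2h, 6h and 12h.

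The sign of the genotype difference in Egln3 depended on WT mice 1 and 4. With all mice KO minus WT was -1.40, -1.54, -0.81, -0.76 and 0.12 at 0h, 2h, 6h, 12h and 24h, none of them called. Without the pair it was 0.88, 1.20, 1.57 and 1.59 from 0h to 12h, all called (adjusted p = 0.000867, 5.76e-05, 3.54e-07 and 1.6e-07), and 0.45 at 24h, not called. At each of these 4 times all 5 KO libraries lay above those of WT mice 2, 3 and 5 and below those of WT mice 1 and 4. Of all genes, 11.1%, 12.8%, 24.7% and 46.8% had KO libraries that did not overlap those of WT mice 2, 3 and 5 at 0h, 2h, 6h and 12h. In the libraries of WT mice 1 and 4 the mitosis and immature thymocyte markers were also highest from 0h to 12h, and their part in the Egln3 level was not tested.

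Egln2 (chromosome 7, 27158658 to 27166802, minus strand) encodes PHD1, the third hydroxylase, and was the steadiest of the family. KO libraries lay between 50.7 and 77.7 CPM at all times. WT libraries lay between 44.4 and 72.4 CPM, apart from WT mouse 3 with 207 CPM at 0h and 98.0 CPM at 2h. In WT the changes of -0.75, -0.64 and -0.56 at 6h, 12h and 24h were called, and they rested on that mouse: without it they were not called, and the 24h change was 0.01 (adjusted p = 0.976). Without WT mice 1 and 4, which leaves mouse 3 as 1 of 3, the changes were -1.10, -1.13 and -1.01. No change was called in KO.

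Vhl (chromosome 6, 113623959 to 113631633, plus strand) encodes the recognition subunit of the ubiquitin ligase that degrades HIF-1α. KO mice had 28.3, 30.1, 34.6, 30.2 and 27.3 CPM at 0h and 47.0, 48.5, 47.3, 39.6 and 52.4 CPM at 2h, with no overlap. Vhl rose in KO by 0.64 at 2h (SE 0.143, adjusted p = 0.000345) and was still up by 0.47 at 12h (adjusted p = 0.00507). WT mice had 33.3, 30.5, 71.9, 32.6 and 33.4 CPM at 0h and 44.0, 47.0, 55.7, 47.2 and 53.2 CPM at 2h. The 4 WT mice other than mouse 3 were higher at 2h than at 0h, and mouse 3 was lower. The WT change at 2h was 0.29 (adjusted p = 0.115), and with each mouse compared with itself it was called, at 0.33 (adjusted p = 0.0454). At 12h WT rose by 0.38 (adjusted p = 0.0287), a call kept in 6 of 17 settings, and the step from 12h to 24h, -0.44, was called in 10 of 17. Vhl and Egln1 had a Spearman rho of -0.63 over the 50 libraries, which share mice and times. At 6h all KO libraries (32.9 to 40.3 CPM) lay below all WT libraries (44.0 to 47.9 CPM), where 11% of all genes did not overlap, with a difference of -0.30 that was not called (adjusted p = 0.158).

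Among the targets, Vegfa (chromosome 17, 46016993 to 46032369, minus strand), which encodes the main endothelial growth factor, rose most. KO mice had 1.27, 1.29, 0.579, 1.73 and 3.88 CPM at 0h and 39.5, 29.3, 22.2, 23.1 and 15.9 CPM at 2h. WT mice had 1.43, 0.550, 0.289, 2.18 and 0.467 CPM at 0h and 2.23, 16.4, 25.4, 5.34 and 17.2 CPM at 2h. Every 2h library lay above every 0h library in both genotypes, but WT mouse 1 stayed between 1.17 and 2.23 CPM at all 5 times. The log2 change at 2h was 3.88 in KO (SE 0.608, adjusted p = 1.88e-06) and 3.71 in WT (SE 0.608, adjusted p = 8.48e-06), and 5.37 in WT without mice 1 and 4. At 12h KO stood at 9.06, 6.77, 9.34, 7.74 and 10.6 CPM and WT at 1.51, 6.44, 6.92, 2.91 and 7.31 CPM, below the 2h levels of the same mice in all 10. The changes from 0h were 2.30 in KO and 2.31 in WT at 12h, and 2.56 and 2.93 at 24h. Without mice 1 and 4 the WT changes were 3.83 at 12h and 4.44 at 24h. All 8 changes of Vegfa from 0h were called in 17 of 17 settings.

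Vegfa in KO was not called against WT at any time by edgeR with all mice, where the differences ran from 0.43 to 0.97. At 6h the KO libraries (14.4 to 25.1 CPM) lay just above the WT libraries (1.17 to 14.3 CPM), where 11% of all genes did not overlap, with a difference of 0.85 (adjusted p = 0.311). Without WT mice 1 and 4, KO was higher at 0h by 1.94 (SE 0.404, adjusted p = 0.00159), at 0.579 to 3.88 CPM against 0.289 to 0.550 CPM, where 11.1% of all genes did not overlap. In that fit the KO change from 0h was smaller than the WT change by 1.63 at 6h (interaction -1.63, adjusted p = 0.0334) and by 1.56 at 12h (interaction -1.56, adjusted p = 0.024). The interactions at 2h (-1.55, adjusted p = 0.172) and 24h (-1.90, adjusted p = 0.0528) were not called. All of these values rest on few reads at 0h, 17, 3 and 12 in WT mice 2, 3 and 5 and 8 to 101 in KO. With all mice the interactions were 0.17, 0.04, -0.01 and -0.37 from 2h to 24h.

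Pdk1 (chromosome 2, 71873224 to 71903858, plus strand) encodes a kinase that switches off pyruvate dehydrogenase and so keeps pyruvate out of the citric acid cycle. It is a textbook HIF target, and it fell. KO mice had 340, 357, 295, 344 and 210 CPM at 0h and 93.6, 102, 110, 101 and 101 CPM at 2h. WT mice had 103, 392, 202, 147 and 398 CPM at 0h and 63.3, 150, 88.0, 79.5 and 140 CPM at 2h. Each of the 10 mice was lower at 2h than at 0h, and KO levels then stayed between 79.6 and 124 CPM to 24h. The gene fell at 2h by 1.60 in KO (SE 0.235, adjusted p = 5.34e-07) and by 1.25 in WT (SE 0.233, adjusted p = 5.55e-05), with changes of -1.82 and -1.49 at 6h and -1.50 and -1.18 at 24h, all called. In WT the 2h and 12h calls were lost when only the 10 libraries compared were fitted (adjusted p = 0.157 and 0.0575). WT mice 1 and 4 had the lowest Pdk1 levels of 0h, and without them the WT change at 6h was -1.91.

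Ankrd37 (chromosome 8, 45996902 to 46005707, minus strand), an ankyrin repeat gene used as a hypoxia marker, was a low gene that dipped early. KO mice had 2.77, 3.44, 3.25, 3.31 and 2.65 CPM at 0h and 1.62, 1.20, 1.67, 1.97 and 2.07 CPM at 2h. WT mice had 4.48, 3.82, 14.7, 4.26 and 3.62 CPM at 0h and 2.20, 1.91, 1.60, 2.21 and 1.28 CPM at 2h. No 2h library reached the 0h level of its genotype. The gene fell at 2h by 1.73 in WT (SE 0.332, adjusted p = 8.88e-05) and by 0.85 in KO (SE 0.327, adjusted p = 0.034), a KO call lost without KO mouse 1, 2, 3 or 4 and a WT call lost when only the libraries compared were fitted. Without WT mouse 3, whose 0h library was at 14.7 CPM, the WT change was -1.07 and was still called. At 0h all KO libraries lay below all WT libraries, as for 3.1% of all genes, and the difference of -0.99 was the only call among the members at 0h (adjusted p = 0.0493, with 7.93% of all genes called). It was called in 5 of 18 settings, was -0.39 without WT mouse 3 (adjusted p = 0.369), and was lost without WT mouse 3 or 4 and without any 1 of the KO mice. Exons of Ankrd37 share 349 bases with Lrp2bp and 57 bases with Ufsp2 on the other strand. Lrp2bp reached at most 1.08 CPM in any library and Ufsp2 52.9 CPM. The kit marks strand, per the labels, but the strand setting of the counting is not given in the sources used here, so reads of these overlaps cannot be assigned with certainty. The same limit holds for Bnip3, whose exons share 504 bases with Gm45507 on the other strand. Hif1a shares 330 bases with Gm15283 and Egln2 shares 11 with Cyp2t4, also on the other strand. Hif1a further shares 148 exon bases with Gm49321 on its own strand.

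Bnip3 (chromosome 7, 138890836 to 138909519, minus strand), a mitochondrial receptor for mitophagy, and Adm (chromosome 7, 110627661 to 110629820, plus strand), the vasodilator peptide adrenomedullin, were near the floor. Bnip3 counted 0 to 80 reads per library (0 to 4.19 CPM) and Adm 0 to 97 reads (0 to 3.31 CPM), and neither was called in any comparison in the fit of all mice without a mouse term. WT mouse 1 had 0.171, 0, 0.113, 0.274 and 0.0948 CPM of Bnip3 from 0h to 24h, below every KO library at each time. WT mice 2, 3 and 5 had 2.76, 2.23 and 2.28 CPM of Bnip3 at 12h, and KO mice 1.44, 2.01, 1.41, 0.892 and 0.693 CPM. With each mouse compared with itself, Bnip3 rose in WT by 1.36 at 12h (adjusted p = 0.00585) and by 1.14 at 24h (adjusted p = 0.0171), and the KO change was smaller at 12h (interaction -1.89, adjusted p = 0.0199). Adm was highest in WT mice 1 and 4 at 0h, with 3.31 and 1.93 CPM, against 0.550, 0 and 0.0389 CPM in WT mice 2, 3 and 5. In KO it went from 0.396, 0.166, 0, 0.968 and 0.307 CPM at 0h to 1.56, 0.684, 1.37, 1.31 and 1.40 CPM at 24h, a change called only with each mouse compared with itself (adjusted p = 0.019) or without WT mice 1 and 4 (adjusted p = 0.0278). At these depths smaller changes of both genes were not detectable.

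**Figure D2:**
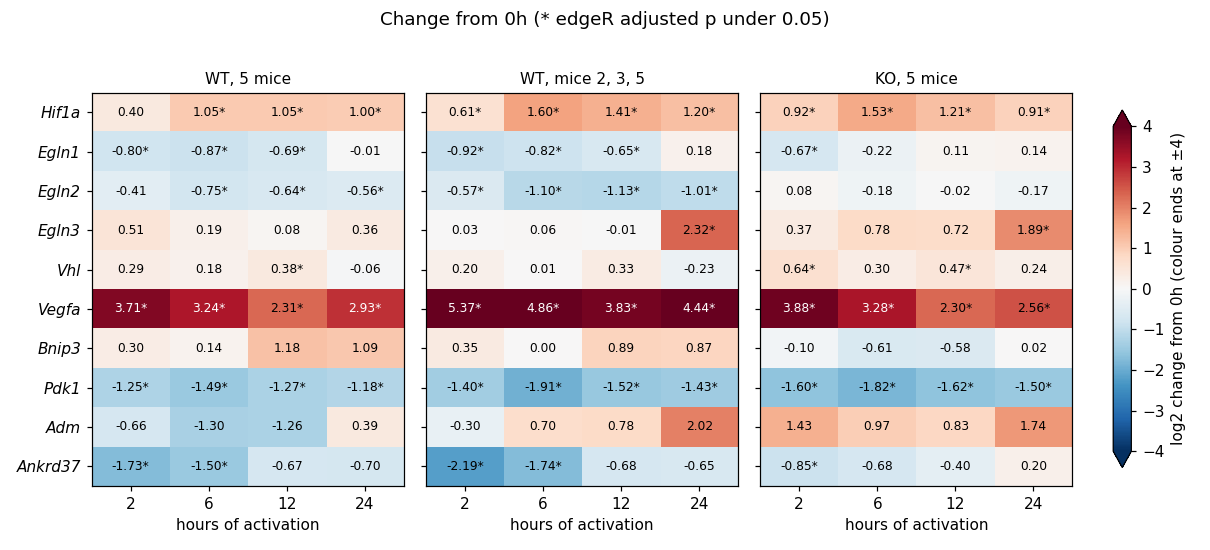
Log2 change from 0h (numbers and colour, which ends at ±4) of the 10 genes at 2h, 6h, 12h and 24h in WT with 5 mice, in WT mice 2, 3 and 5, and in KO with 5 mice, where a star marks an edgeR adjusted p under 0.05. Vegfa is starred in all 12 cells and Pdk1 in all 12, while Egln1 is starred at 6h and 12h in WT only.

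Few members were called from step to step after 6h with all mice, as the map of changes from 0h shows. Between 2h and 6h, 1 member was called in WT (29.3% of all genes) and 3 in KO, 2 up and 1 down (43.2%). Between 6h and 12h edgeR called 0 members in WT (0.609% of all genes) and 0 in KO (2.86%), with 1 member in each at an unadjusted p under 0.05, and DESeq2 and limma-voom also called 0. Between 12h and 24h WT had 1 up and 1 down, Egln1 and Vhl (15.1%), and edgeR called 0 in KO (10%), where 0 passed an unadjusted p under 0.05 and DESeq2 and limma-voom called 0. With each mouse compared with itself, however, the 12h to 24h step of Egln3 was called in KO (1.17, adjusted p = 0.00477) and in WT (1.57, adjusted p = 0.000295), and so it was without WT mice 1 and 4 (1.18, adjusted p = 2.49e-08, and 2.33, adjusted p = 2.66e-11).

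**Figure D3:**
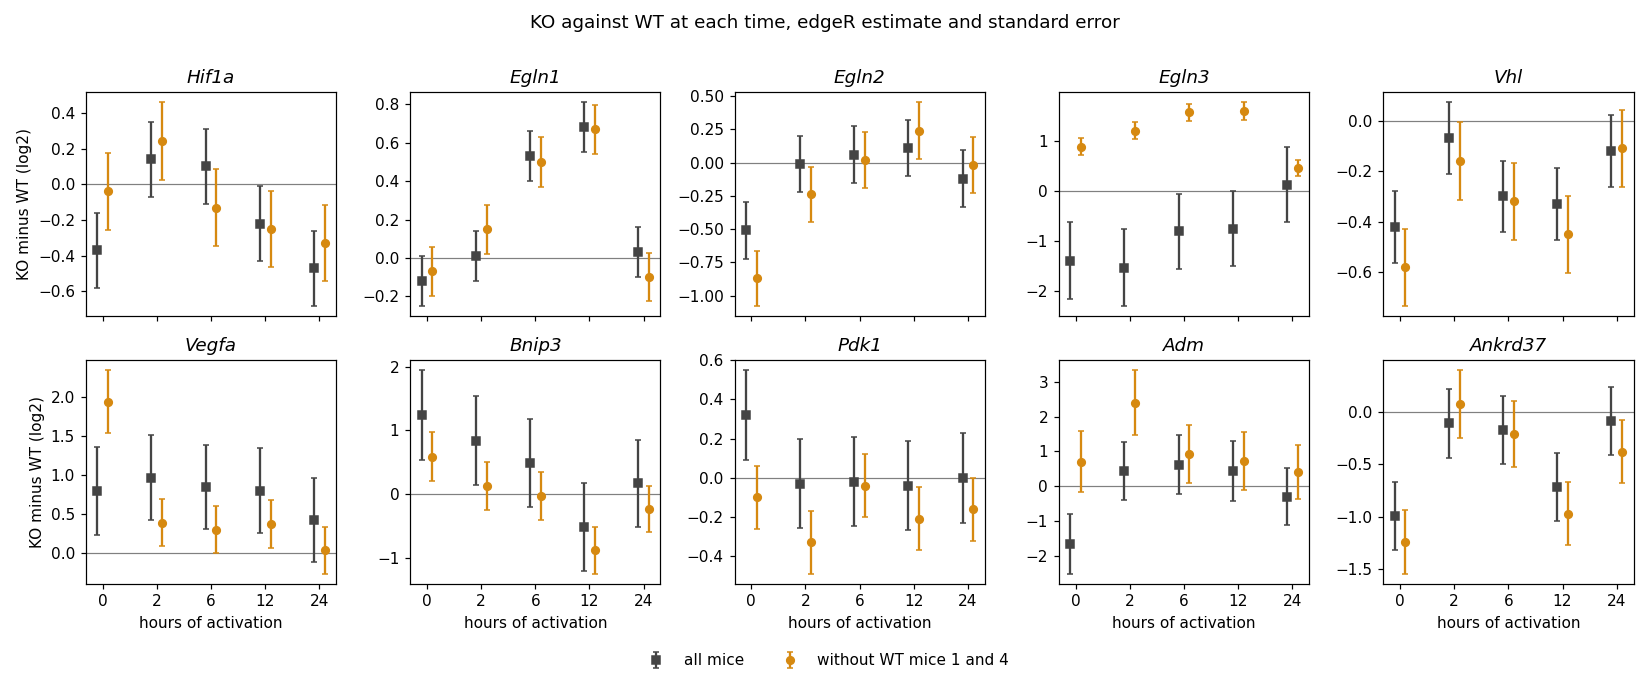
KO minus WT log2 difference (edgeR estimate, bars of 1 standard error) of the 10 genes at each time, with all mice (grey squares) and without WT mice 1 and 4 (orange circles), on vertical axes that differ by gene. Egln1 is at 0.53 and 0.68 at 6h and 12h with all mice and at 0.50 and 0.67 without the pair, whereas Egln3 is below 0 with all mice and above 0 without them up to 12h.

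The plot of KO minus WT estimates compares the genotypes at each time. With all mice edgeR called 1 of the 10 members at each of 0h, 6h and 12h, beside 7.93%, 10.1% and 13.1% of all genes. At 2h edgeR called 0 members, where 11.8% of all genes were called, with 1 at an unadjusted p under 0.05, 0 by DESeq2 and 1 by limma-voom. At 24h edgeR called 0 members and 0.0451% of all genes, with 1 member at an unadjusted p under 0.05 and 0 by DESeq2 and limma-voom. Hif1a at 24h was lower in all 5 KO libraries than in all 5 WT libraries, which held for 5.9% of all genes, and its difference of -0.47 was not called (SE 0.210, adjusted p = 0.622). The differences of the changes from 0h gave 0 calls at 2h (0.015% of all genes) and 0 at 24h (0.0752%) by edgeR, DESeq2 and limma-voom, with 0 at an unadjusted p under 0.05. Without WT mice 1 and 4 the fit called 12 of 50 differences between the genotypes where all mice gave 3. Beside the calls of Egln1, Egln3 and Vegfa given above, these were Egln2 (-0.87), Vhl (-0.58, adjusted p = 0.00789) and Ankrd37 (-1.24) at 0h, and Vhl (-0.45, adjusted p = 0.0304) and Ankrd37 (-0.97, adjusted p = 0.0183) at 12h. In the 0h calls of Egln2, Vhl and Ankrd37 WT mouse 3, which was high for all of them, is 1 of 3 WT mice. That fit had 22.4%, 4.1%, 4.16%, 23% and 0.0453% of all genes called from 0h to 24h. The model counts libraries of 1 mouse as independent when it compares the genotypes. With mouse as a random block in limma-voom, Egln1 kept both calls (0.53 at 6h, adjusted p = 0.0257, and 0.69 at 12h, adjusted p = 0.00252) and Ankrd37 lost its call at 0h. Vegfa (1.55, adjusted p = 0.0251) and Bnip3 (2.13, adjusted p = 0.0471) were called higher in KO at 2h by that method. By edgeR without WT mice 1 and 4 these differences were 0.39 and 0.13, not called (adjusted p = 0.519 and 0.903). At 2h WT mice 1 and 4 held 0 and 8 Bnip3 reads, WT mice 2, 3 and 5 held 49, 7 and 51, and KO mice 36 to 42.

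Levels were compared between genes per kilobase of exon. At 0h in WT the order was led by Pdk1 (31.9 ± 17.8 CPM per kb, SD, n = 5) and Egln2 (31.8 ± 23.8), followed by Hif1a (22.4 ± 9.63) and Egln1 (21.5 ± 2.18), which did not differ beyond their spread. The place of Egln2 there rests on WT mouse 3 (207 CPM), the other WT mice having 51.2 to 72.4 CPM. At 24h Hif1a led in WT (44.9 ± 6.91 CPM per kb) and in KO (32.4 ± 1.34), above Egln1 (21.4 ± 3.45 and 21.9 ± 1.17) by more than the spread. Egln2, Egln3, Pdk1 and Vhl followed, in the same order in both genotypes, though without mice 1 and 4 the WT mean of Pdk1 (15.8) was above that of Egln3 (13.4). In WT, Egln1 and Egln2 (21.4 ± 2.10) did not differ beyond their spread, nor did Egln3 (16.7 ± 4.65), Pdk1 (14.1 ± 2.67) and Vhl (12.9 ± 0.669). Vegfa, Ankrd37, Bnip3 and Adm stood at 2.43 CPM per kb or less at 24h in KO.

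The genes whose levels were most like each member's over the 50 libraries were ranked by Spearman rho among 9744 genes, as a description of libraries that share mice and times. Vegfa was nearest to Gadd45b (0.934), Smim3 (0.926) and Pim1 (0.91), Egln3 to Pard6g (0.91), Lrp8 (0.9) and Gpt2 (0.896), and Egln1 to Rftn1 (0.884), Ass1 (0.876) and Hlcs (0.866). Hif1a was nearest to Nsmf (0.893), Qtrt2 (0.89) and Ppip5k2 (0.879), and Pdk1 to Smpd1 (0.875), Flt3l (0.834) and Abca3 (0.83). Among the members themselves the highest rho was that of Egln3 and Adm (0.669, and 0.683 over the 40 libraries without WT mice 1 and 4), and the lowest that of Egln1 and Vhl (-0.63, and -0.557).

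Around these members, 3 wider lists describe the pathway: 12 regulators of HIF, 29 other hypoxia targets, of which 28 were tested, and 17 glycolytic targets. At 24h the WT cells had 13 of the 17 glycolytic targets up and 0 down, and the KO cells 14 up and 0 down. Their median changes were 1.38 and 1.57, beside medians of -0.08 and 0.02 over all genes. Of all genes, 19.9% rose and 24.2% fell in WT at that time, and 30.7% and 28% did in KO. Hk2, the inducible hexokinase, averaged 20.7 ± 24.7 CPM at 0h and 171 ± 55.5 CPM at 24h in the WT mice (SD, n = 5), a log2 change of 3.04 (SE 0.638) that was 6.08 without mice 1 and 4. The KO means were 6.26 ± 3.06 and 222 ± 9.60 CPM, a change of 5.14 (SE 0.707). The lactate exporter Slc16a3 rose by 2.79 and 2.60, triosephosphate isomerase Tpi1 by 1.78 and 2.75 (2.88 in WT without mice 1 and 4), and phosphoglycerate mutase Pgam1 by 1.80 and 2.34 (3.13 in WT without mice 1 and 4). Pdk1, which acts at the exit of glycolysis, fell in the same libraries in which 13 or 14 glycolytic targets rose.

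The other targets were divided. At 24h the WT cells had 11 of them higher and 6 lower, and the KO cells 12 and 8, with medians of 0.30 and 0.46. Bhlhe40, a repressor of the clock family, rose from 2.77 ± 2.16 to 90.9 ± 24.9 CPM in WT (SD, n = 5; log2 5.02, SE 0.703) and from 10.9 ± 6.57 to 119 ± 11.5 CPM in KO (3.44, SE 0.646). The mitochondrial adenylate kinase Ak4 rose by 5.11 in WT and 3.19 in KO. Nos2, the inducible nitric oxide synthase, reached 1.91 ± 0.302 CPM in WT (adjusted p = 4.7e-05) and 1.91 ± 0.413 CPM in KO (adjusted p = 2.68e-05) from at most 0.107 CPM at 0h. The transferrin receptor gene Tfrc, which serves iron uptake, was also up in both genotypes, by 2.34 (SE 0.324) in WT, where it was 3.63 without mice 1 and 4, and by 3.00 (SE 0.332) in KO. Bnip3l, the mitophagy receptor related to Bnip3, fell by 1.82 in WT (SE 0.280) and by 2.17 in KO (SE 0.284), from 123 ± 69.9 to 34.7 ± 13.9 CPM and from 101 ± 12.1 to 22.4 ± 2.19 CPM. The histone demethylase Kdm4b fell by 1.15 and 1.26 (in WT by 1.78 without mice 1 and 4), Pfkfb4, which sets the fructose bisphosphate regulator of glycolysis, by 0.87 and 1.10, and the Myc antagonist Mxi1 by 0.89 and 0.97.

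Of the 12 regulators 3 were up and 1 down in WT at 24h, and 4 were up and 3 down in KO, with medians of -0.17 and 0.12, beside 44.1% of all genes called in either direction in WT and 58.7% in KO, so that the share of regulators called was no higher than that of all genes. In both genotypes Siah2, a ubiquitin ligase for the prolyl hydroxylases, rose by 1.29 in WT (SE 0.319, adjusted p = 0.00107) and 1.59 in KO (SE 0.321, adjusted p = 5.84e-05), and of the partners of Vhl in its ligase, the scaffold Cul2 rose by 1.13 and 1.47 and elongin C, Eloc, by 0.61 and 1.20. The other partners, Elob and Rbx1, were not called (-0.44 and -0.11 in WT, 0.57 and 0.27 in KO). Without WT mice 1 and 4 the WT change of Cul2 was 1.70. The coactivator Crebbp fell by 0.68 and 0.61.

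**Figure D4:**
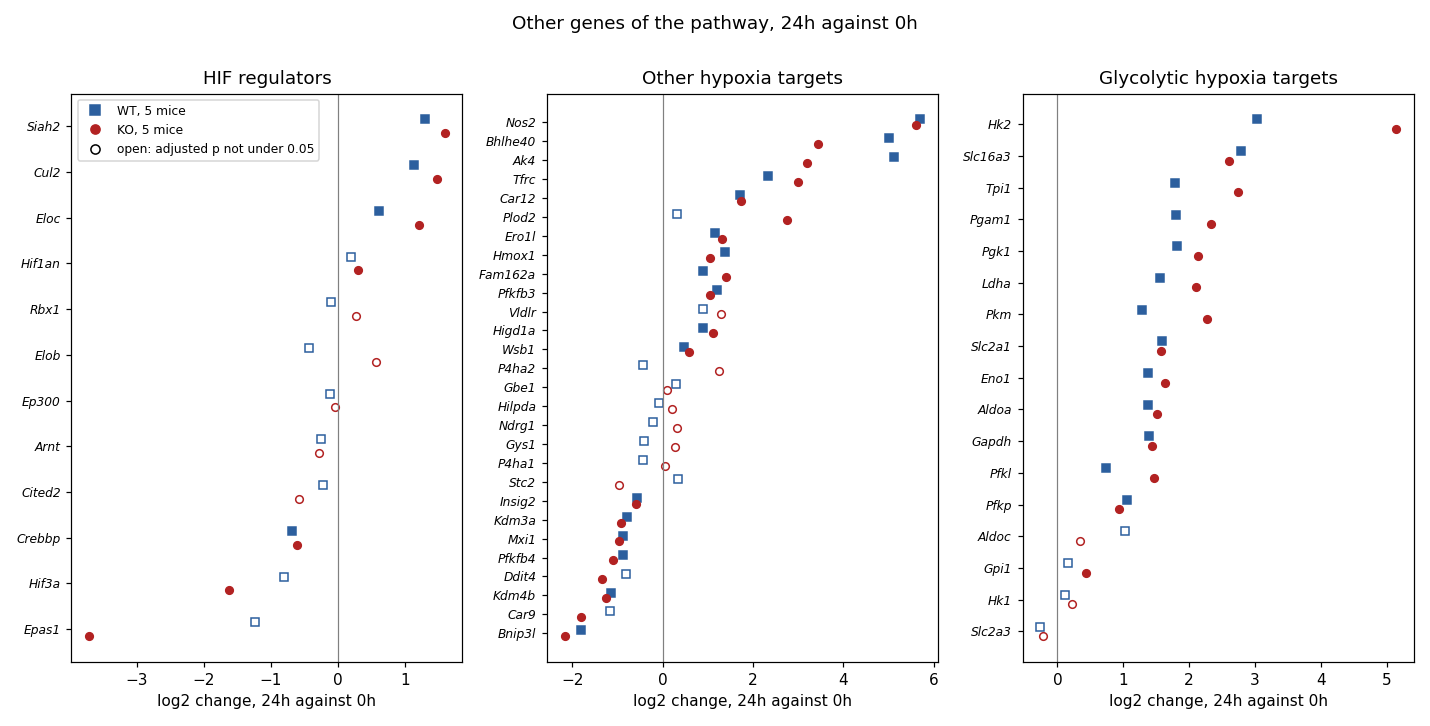
Log2 change at 24h against 0h of the 12 regulators, the 28 tested other hypoxia targets and the 17 glycolytic targets in WT (blue squares) and KO (red circles), with open symbols where the adjusted p was not under 0.05. Of the glycolytic targets 13 are filled and above 0 in WT and 14 in KO, while the other targets spread to both sides of 0, as the medians of 0.30 and 0.46 show.

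The genotypes were also compared in these lists, beside the shares of all genes. At 12h 1 regulator was higher in KO and 1 lower, 1 other target higher and 5 lower, and 2 glycolytic targets higher and 0 lower, beside 5.54% of all genes called higher and 7.55% lower. Without WT mice 1 and 4 the counts were 4 and 0 of the regulators, 1 and 3 of the other targets and 4 and 0 of the glycolytic targets. In that fit 13.9% of all genes were called higher and 9.03% lower. The genes named in the rest of this paragraph were picked after their values were seen. Bnip3l averaged 65.3 ± 7.96 CPM in the WT libraries (SD, n = 5) but 28.4 ± 3.98 CPM in those of KO, a difference of -1.20 (SE 0.276, adjusted p = 0.00554) that was -1.05 without WT mice 1 and 4. Hif1an, the asparagine hydroxylase that blocks HIF coactivator binding, was at 135 ± 7.15 CPM in KO and 100 ± 12.7 CPM in WT, higher by 0.43 (SE 0.118, adjusted p = 0.0162) and by 0.37 without WT mice 1 and 4. The glycolytic enzymes Hk1 and Pfkl were higher in KO by 0.63 and 0.70 (1.11 and 0.54 without the pair). Epas1, which encodes another alpha subunit, was called lower in KO with all mice (-4.26, adjusted p = 0.0364). It stood at 0.321 to 5.18 CPM (median 0.560) in KO and 0.271 to 84.1 CPM (median 0.599) in WT. Epas1 was not called without the pair, where WT mice 2, 3 and 5 had 0.271 to 0.599 CPM. At 24h edgeR called 0 genes of the 3 lists, with 1 regulator, 1 other target and 0 glycolytic targets at an unadjusted p under 0.05, and 1, 0 and 0 by DESeq2 and 0 in each list by limma-voom.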

How the data were processed

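Poly(A) RNA of the 50 CD8+ T cell samples was sequenced as single-end reads from a stranded kit, per the labels. Per the submitters' processing notes the tools were featureCounts 1.4.6, STAR 2.4 and CASAVA 1.8.2 and the build GRCm38, their roles not being stated; annotation release and strand setting are not given in the sources used here. The authors deposited raw counts per gene, without normalization, and 0 per-sample columns were left out. Symbols came from GENCODE M21 (21583 of 21647 identifiers matched), promoter sequences from RefSeq.

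Genes were filtered by filterByExpr (minimum count 10, minimum total 15, smallest group 5). TMM-scaled counts of all 50 libraries were fitted in 1 robust quasi-likelihood model with 10 group means (edgeR 4.0.16, R 4.3.3), leaving 40 residual degrees of freedom. The model was also run on simulated counts. In these, libraries of a mouse were independent and no mouse stood apart, so that run cannot show how the model handles either. CPM used TMM-scaled totals. SE was derived from the fold change and its F statistic. Library depth limits precision only for the members of a few CPM.

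Labels number the mice within a genotype, and libraries of the same mouse correlated in their deviations from group means by 0.415 to 0.638 in WT and 0.212 to 0.356 in KO on average. Changes over time were therefore also fitted with a mouse block, and KO against WT with mouse as a random block (limma-voom, limma 3.58.1). Numbers do not pair mice across genotypes. Other alternatives were scaling by totals, no filter, DESeq2 1.42.0, limma-voom, leaving out each mouse, leaving out WT mice 1 and 4, and fitting only the libraries compared.

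All 10 members are named. Of each wider list, at most 4 risers and 4 fallers, those of largest mean 24h change called alike in both genotypes, are named, and for each member up to 3 genes of highest rho with a mean of at least 5 CPM. Members, lists and tests were chosen with earlier results of these data known. The targeted gene, a check of the genotype labels and 1 gene of the other hypoxia targets are not reported here, and the counts and medians of that list leave this gene out.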

Additional observations from a re-analysis of the deposited data

Results flagged for a closer look

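Outlying libraries were flagged on log2 CPM (prior count 2) and are listed by their CPM, in which a gap can be a smaller share. In 15 of 100 groups of 5 libraries (10 genes, 2 genotypes, 5 times) the highest or lowest library lay apart from the other 4 by more than 0.71 of the group's range of log2 CPM, where chance gives about 1 in 20. Of these, 5 were the 0h library of WT mouse 3, which was low for Hif1a (38.0 CPM) and Egln1 (63.4 CPM) and high for Egln2 (207 CPM), Vhl (71.9 CPM) and Ankrd37 (14.7 CPM). Its total of 13261005 counts was the third lowest of the 50 libraries and its TMM factor was 0.783.

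WT mouse 1 was low for Vegfa at 24h (1.52 CPM) and for Bnip3 at 12h (0.274 CPM) and 24h (0.0948 CPM). KO mouse 1 was low at 24h for Hif1a (177 CPM) and Egln3 (38.5 CPM). KO mouse 3 was high for Vegfa at 6h (25.1 CPM) and 24h (14.3 CPM), and KO mouse 2 was high for Egln2 at 2h (77.7 CPM) and low for Adm at 24h (0.684 CPM). Adm was at 0 CPM in WT mouse 5 at 6h.

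The change of Egln1 from 0h differed between the genotypes by the interaction test, by 0.65 at 6h (adjusted p = 0.0433) and 0.79 at 12h (adjusted p = 0.0048).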

How the results depend on the processing

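Counts below are calls among the 10 members over all times of a comparison. Over time in WT there were 20 calls, and 8 with only the libraries compared. Those fits called 2.46%, 9.67%, 10.7% and 20.7% of all genes at 2h, 6h, 12h and 24h. The main fit called 30.2%, 39.9%, 39.4% and 44.1%. Between neighbouring times in WT there were 3, with 1 to 4 when 1 mouse was left out (1 without WT mouse 2 or 5) and 7 without WT mice 1 and 4. Without that pair 51.3%, 20.6% and 36.4% of all genes were called at these steps, and 29.3%, 0.609% and 15.1% with all mice. In KO the 3 calls between neighbouring times became 0 to 4 (0 without KO mouse 1, 1 without KO mouse 3, 4 or 5), 8 without WT mice 1 and 4 and 20 with only the libraries compared. Of all genes, the main fit called 43.2%, 2.86% and 10% at these KO steps. The shares were 58.8%, 23.4% and 31.4% without the pair and 69.7%, 49.1% and 66.9% with only the libraries compared. For KO against WT the 3 calls became 1 to 5 (5 without WT mouse 1 or 3, 1 without WT mouse 4 or KO mouse 1, 2 or 4), 12 without WT mice 1 and 4, and 10 by limma-voom with a random mouse block without that pair, a choice made after seeing the data. From 0h to 24h the main fit called 7.93%, 11.8%, 10.1%, 13.1% and 0.0451% of all genes. Without the pair edgeR called 22.4%, 4.1%, 4.16%, 23% and 0.0453%, and limma-voom with the block 14.8%, 3.56%, 4.96%, 24.2% and 0.0377%. The 2 interaction calls became 0 with library totals, 1 without a filter, 1 to 3 without 1 mouse, 7 without WT mice 1 and 4 and 1 with only the libraries compared. Without the pair the interactions of 0.264%, 9.56%, 20.5% and 0.86% of all genes were called from 2h to 24h, and with all mice 0.015%, 2.47%, 7.5% and 0.0752%. With only the libraries compared the shares were 0%, 0%, 3.28% and 0.00794%. Shares of all genes were not computed with library totals, without a filter or without 1 mouse. With mouse as a replicate block the counts were 23 over time and 4 between times in WT, 20 and 4 in KO, 3 for the interactions, and 4 for KO against WT by limma-voom. That block called 37.2%, 47.8%, 47.8% and 55% of all genes from 2h to 24h against 0h in WT, and 49.3%, 58.9%, 62% and 66.2% in KO. At the neighbouring steps it called 37.4%, 2.8% and 26.5% in WT, and 52.7%, 9.19% and 19.8% in KO. It called the interactions of 0.0301%, 5.07%, 12.3% and 0.752% of all genes from 2h to 24h. For KO against WT with all mice, limma-voom with the random block called 5.98%, 7.62%, 5.47%, 8.98% and 0.0376% from 0h to 24h. The cause of these shifts was not tested, though leaving out mice leaves fewer samples.

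Among values called in at least 1 of the fits compared, those that turned sign were Egln2, WT 24h against 0h (-0.78 to 0.01 without 1 mouse, the latter without WT mouse 3), Egln3 in KO against WT without WT mice 1 and 4 (0.88, 1.20, 1.57 and 1.59 at 0h, 2h, 6h and 12h, and 0.87, 1.17, 1.57 and 1.58 by limma-voom with the random block), and the Vegfa interaction at 6h without that pair (-1.63). Values called in neither fit turned sign too, such as Adm in WT at 6h (-1.30, and 0.70 without the pair). Depth limits Bnip3 and Adm, whose libraries held at most 80 and 97 counts. It also limits Vegfa at 0h, with 3 to 61 counts in WT and 8 to 101 in KO.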
